A study of Homo sapiens with 9 samples.

Results

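The aryl hydrocarbon receptor and its best-known partners and targets were followed as a set of 7 genes in HaCaT keratinocytes: AHR, ARNT, AHRR, CYP1A1, CYP1B1, TIPARP and ALDH3A1. The members are the rows of the deposited count table whose Ensembl identifier maps to one of these symbols. All 7 were found among 20263 identifiers, and all 7 were among the 13912 genes with enough counts to be tested. HaCaT is a spontaneously immortalised human keratinocyte line. Messenger RNA was sequenced in 9 libraries, 3 for each of 3 groups. The control group (titled Blank) is HaCaT without added melanosomes. The melanosome group is HaCaT loaded with melanosomes, organelles of pigment that keratinocytes take over from melanocytes, and the glabridin group is HaCaT that received melanosomes and glabridin, an isoflavan from liquorice root. No group received glabridin without melanosomes, and all 3 groups share the single cell line. How much glabridin was given, for how long, in which solvent, and where the melanosomes came from were not stated in the labels. The labels also do not tie replicates to separate cultures. The p-values therefore rest on the variation among these libraries, which may be technical.

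AHR is a ligand-activated transcription factor that waits in the cytosol with HSP90 chaperones. When a planar aromatic compound or a tryptophan metabolite binds it, it enters the nucleus, pairs with ARNT and binds DNA at a short core sequence, the xenobiotic response element. In keratinocytes the pathway handles pollutants and light-derived tryptophan products and takes part in barrier gene expression. CYP1A1 and CYP1B1 are oxidases and its most widely used target genes, ALDH3A1 is an aldehyde dehydrogenase, and AHRR and TIPARP are targets that feed back to restrain the receptor.

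The core of the response element is GCGTG, and a longer form is TNGCGTG, which contains the core. The windows of 250 bases before the transcription start (RefSeq, GRCh38.p14) of 3 of these feedback and target genes are shown because the genes moved in different ways in the libraries below. All read 5′ to 3′ on the gene's strand, with the core in capitals. The CYP1A1 window lies at chr15:74725529-74725778 on the minus strand, the TIPARP window (the first of 3 starts) at chr3:156674340-156674589 on the plus strand, and the AHRR window (the first of 2 starts) at chr5:321464-321713 on the plus strand.
CYP1A1: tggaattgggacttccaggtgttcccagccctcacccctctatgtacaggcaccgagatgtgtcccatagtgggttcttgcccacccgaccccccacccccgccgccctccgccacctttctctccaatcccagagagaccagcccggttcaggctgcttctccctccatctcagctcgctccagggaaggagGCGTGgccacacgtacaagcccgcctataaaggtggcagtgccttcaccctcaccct
TIPARP: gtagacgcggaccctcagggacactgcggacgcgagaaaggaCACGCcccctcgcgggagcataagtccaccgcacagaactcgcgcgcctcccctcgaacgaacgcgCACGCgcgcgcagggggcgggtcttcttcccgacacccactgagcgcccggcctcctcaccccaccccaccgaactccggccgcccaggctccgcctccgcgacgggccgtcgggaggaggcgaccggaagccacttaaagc
AHRR: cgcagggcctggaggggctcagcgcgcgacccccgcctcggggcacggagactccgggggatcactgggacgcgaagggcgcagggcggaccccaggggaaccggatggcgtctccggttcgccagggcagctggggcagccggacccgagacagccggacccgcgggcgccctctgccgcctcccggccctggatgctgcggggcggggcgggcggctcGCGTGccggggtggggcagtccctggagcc
The CYP1A1 window holds 1 core, 57 bases before the start. The TIPARP window holds 2, both on the opposite strand and so read as CACGC, 208 and 142 bases before the start. The AHRR window holds 1 core at 30 bases, which is also a match to the longer form. The window of its second start (chr5:322360-322609) holds 2 cores, 247 and 42 bases before the start. Windows were matched for 5 of the 7 members. CYP1B1 and ALDH3A1 have no entry, and the AHR and ARNT windows hold no core. Among the 35114 windows of that length in the table, 32.2% hold GCGTG on either strand and 4.5% hold TNGCGTG. A match is a description of these letters, not a measured binding site, and no binding was measured here.

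Library totals ran from 39653425 to 46690787 counts. Keratinocyte markers (10 genes such as KRT5 and KRT14) summed to 13005 to 13178 CPM (counts scaled to library size) in control, 10912 to 11883 in melanosome and 8700 to 11458 in glabridin libraries. The melanocyte list (12 genes such as PMEL and MLANA) summed to 8.30 to 9.42 CPM in control, with 3 of the 12 (TYR, TRPM1 and OCA2) at 0 in all control libraries. It summed to 3110 to 3243 CPM in melanosome libraries and 1701 to 3417 CPM in glabridin libraries, and all 12 were higher in melanosome than in control libraries. Fibroblast markers (7 genes) and leukocyte markers (6 genes, PTPRC at 0 throughout) summed to at most 14.7 and 10.5 CPM in any library. The part of these melanocyte-type transcripts in the results below was not tested. In bulk RNA, fewer cells of a type and less RNA per cell cannot be told apart. The glabridin replicates differed most among themselves, with a chi-square per gene of 26.8 to 88.8 against 2.99 to 4.87 in control.

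Loading with melanosomes was accompanied by lower transcript levels of the receptor and of 3 of its targets. CYP1B1 fell 6.43-fold, CYP1A1 3.71-fold, AHR 2.33-fold and TIPARP 1.75-fold, while AHRR, the repressor, was 1.49-fold higher and ARNT and ALDH3A1 did not pass the test. With glabridin, CYP1A1 and TIPARP rose again, 1.96-fold and 2.32-fold over melanosome libraries, but CYP1A1 remained below control and TIPARP ended above it. ALDH3A1 fell, and AHR and CYP1B1 did not pass the test. Of the 7 members, 5 passed in melanosome against control (edgeR quasi-likelihood test, adjusted p under 0.05), 1 higher and 4 lower. Across all genes tested, 62.5% passed in that comparison, 29.5% higher and 33.0% lower, so the number that passed is near the background. Of the members, 3 passed with a change of at least 2-fold, all lower, against 19.7% of all genes in either direction. A log2 change of -0.995 lay at the 6.17th percentile of all genes. The median log2 change was -0.81 over the members and -0.06 over all genes.

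**Figure D1:**
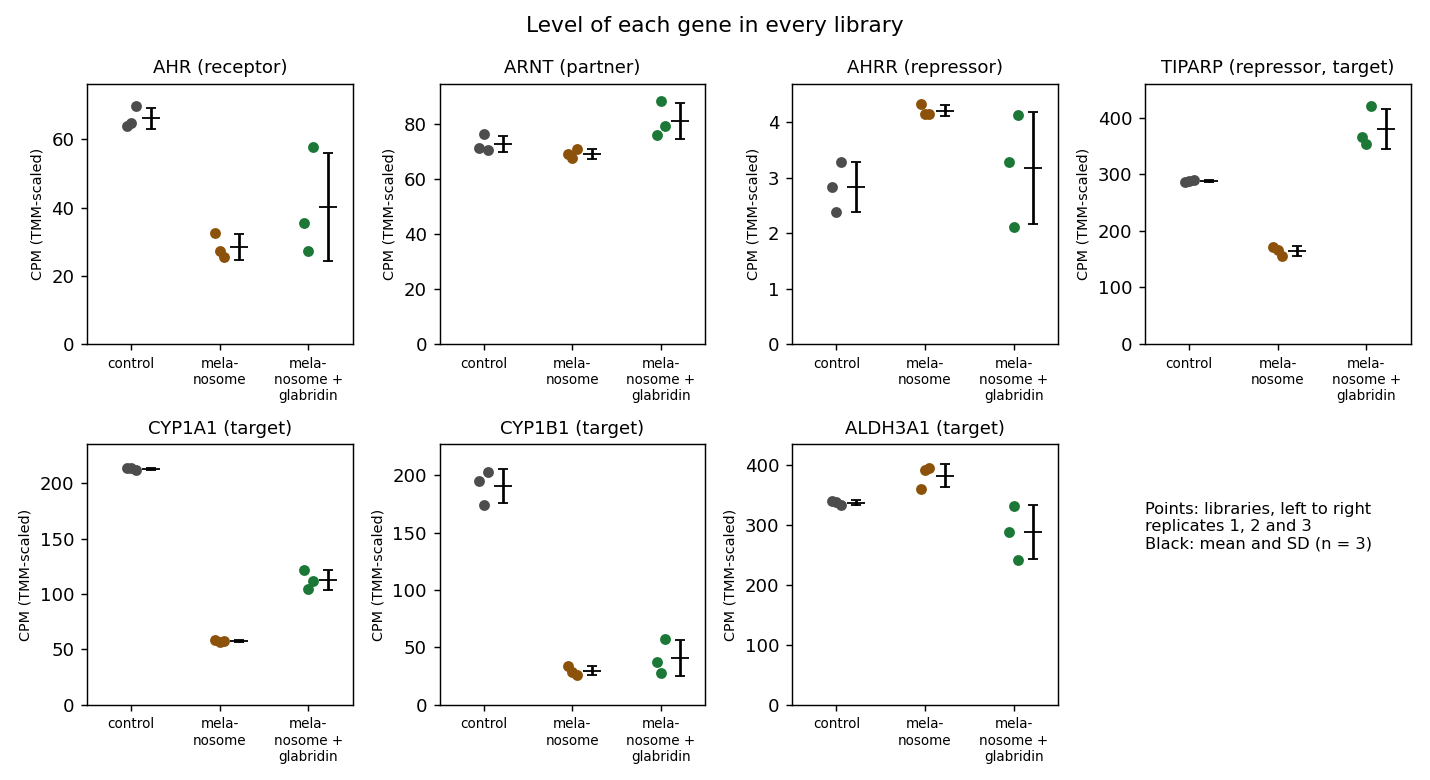
Level of each of the 7 genes in each of the 9 libraries (points; CPM on TMM-scaled library sizes, linear axis from 0), with the mean and SD of each group of 3 as black bars. The control libraries of CYP1A1 sit at 212 to 214 CPM, the melanosome libraries at 56.3 to 58.5 and the glabridin libraries at 104 to 122, whereas AHR and CYP1B1 in the glabridin group spread from the melanosome level upward.

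AHR (ENSG00000106546, chr7:16916359-17346152, plus strand, GRCh38) stood at 63.8, 64.9 and 69.8 CPM in the control libraries. It stood at 32.6, 27.1 and 25.5 CPM in the melanosome libraries and at 35.6, 27.2 and 57.8 CPM in the glabridin libraries. Every melanosome and glabridin library lay below every control library, and the glabridin libraries overlapped the melanosome libraries, with replicate 3 far above the other 2. The change from control to melanosome was -1.22 ± 0.22 on the log2 scale (SE; edgeR adjusted p = 8.00e-04, n = 3 per group). Glabridin libraries were 1.65-fold below control (log2 change -0.72 ± 0.22, edgeR adjusted p = 0.0126). Between glabridin and melanosome the log2 difference was 0.50, with a 95% interval from -0.04 to 1.04, and did not pass (edgeR adjusted p = 0.0897). Without glabridin replicate 2 it was 0.72 and passed (edgeR adjusted p = 0.00280), and without replicate 3 it was 0.14 and did not (edgeR adjusted p = 0.347). The annotated exons of AHR share 2373 bases on the same strand with AC019117.2, a gene with 0 to 2 counts per library. They share 270 bases with the antisense gene AC073332.1. How reads in shared exons were counted is not given, so the AHR counts are uncertain.

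The AHR transcript is long and poor in G and C (6958 bases, 38.2% GC, the 7.79th percentile of genes tested). Across genes, the change from control to melanosome went with GC content at a Spearman rho of 0.298. With per-library offsets for GC content and length, an alternative added after the data were seen, the AHR change from control to melanosome was -0.72 (edgeR adjusted p = 7.47e-05). Under the same offsets the glabridin to control change was -0.27 (edgeR adjusted p = 0.0299). The glabridin to melanosome change was 0.45 and passed (edgeR adjusted p = 0.00310).

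ARNT (ENSG00000143437, chr1:150809705-150876768, minus strand), the DNA-binding partner, varied little. Its levels were 71.3, 76.1 and 70.5 CPM in control, 68.8, 67.4 and 70.8 CPM in melanosome and 75.7, 88.1 and 79.1 CPM in glabridin libraries. Control and melanosome libraries overlapped, and all 3 glabridin libraries lay above all 3 melanosome libraries. The control to melanosome change was -0.07 ± 0.07 (edgeR adjusted p = 0.379), a sign that turned under other scalings (0.09 on library totals, 0.10 on log2(TPM + 1)). The glabridin to melanosome change of 0.23 ± 0.07 passed (edgeR adjusted p = 0.0212) with the trimmed-mean (TMM) factors used here. It did not pass with RLE factors (edgeR adjusted p = 0.0701) or library totals (edgeR adjusted p = 0.544), nor without melanosome replicate 1 or 2 or glabridin replicate 1 (edgeR adjusted p = 0.0577, 0.0811 and 0.0983). The glabridin to control change was 0.16 (edgeR adjusted p = 0.0652), and it passed without glabridin replicate 3 (edgeR adjusted p = 0.0474). Library totals move the median log2 change of all genes by 0.17 in melanosome against control and by -0.18 in glabridin against melanosome.

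AHRR (ENSG00000063438, chr5:304176-438291, plus strand) encodes a repressor that competes with AHR for ARNT and lacks an activation domain. It was the rarest member, with 105 to 133 counts in control, 177 to 223 in melanosome and 84 to 189 in glabridin libraries. In CPM this was 2.84, 2.37 and 3.29 in control, 4.32, 4.15 and 4.16 in melanosome, and 3.28, 2.11 and 4.14 in glabridin libraries. The melanosome libraries were tightly grouped above all control libraries, and the glabridin libraries spread across the control range up to the edge of the melanosome range. The rise from control to melanosome was 0.57 ± 0.22 on the log2 scale (edgeR adjusted p = 0.0387). It did not pass when control replicate 1 or 2 or any melanosome replicate was left out (edgeR adjusted p from 0.0784 to 0.136) or with the GC and length offsets (edgeR adjusted p = 0.0603). The glabridin to melanosome change was -0.40 (95% interval -0.92 to 0.12, edgeR adjusted p = 0.154), and without glabridin replicate 3 it was -0.64 and passed (edgeR adjusted p = 0.0172). The glabridin to control change was 0.17 ± 0.22 (edgeR adjusted p = 0.502), and it passed without glabridin replicate 2 (0.39, edgeR adjusted p = 0.0489). AHRR exons share 244 bases with PDCD6 on the same strand, a gene at 91.4 to 106 CPM on group average, so its counts are uncertain.

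TIPARP (ENSG00000163659, chr3:156673235-156706770, plus strand) encodes an ADP-ribosyltransferase that modifies AHR and lowers its activity. It stood at 286, 289 and 290 CPM in control, 172, 166 and 155 CPM in melanosome and 366, 354 and 421 CPM in glabridin libraries. The 3 groups did not overlap, with melanosome lowest and glabridin highest. It fell by 0.81 ± 0.07 on the log2 scale from control to melanosome (edgeR adjusted p = 4.27e-06). It rose by 1.21 ± 0.07 from melanosome to glabridin (edgeR adjusted p = 6.95e-07), to 1.32-fold above control (edgeR adjusted p = 4.42e-04). Beside the TIPARP window shown above, 2 further annotated starts have windows without the core.

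CYP1A1 (ENSG00000140465, chr15:74719542-74725610, minus strand) was the member with the smallest spread within groups relative to its mean. It stood at 214, 213 and 212 CPM in control, 58.5, 56.3 and 57.3 CPM in melanosome and 122, 104 and 111 CPM in glabridin libraries. The 3 groups did not overlap, and the glabridin libraries lay between the other groups. The log2 change was -1.89 ± 0.06 from control to melanosome (edgeR adjusted p = 5.13e-09), at the 0.819th percentile of all genes. It was 0.97 ± 0.06 from melanosome to glabridin (edgeR adjusted p = 1.30e-06) and -0.92 ± 0.06 from control to glabridin (edgeR adjusted p = 3.65e-07). These calls held in all 21 alternatives run.

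CYP1B1 (ENSG00000138061, chr2:38066973-38109902, minus strand), which also oxidises steroid hormones, showed the deepest fall of the set. It stood at 195, 174 and 202 CPM in control, 34.0, 28.7 and 26.2 CPM in melanosome and 37.3, 27.4 and 57.5 CPM in glabridin libraries. All melanosome and glabridin libraries lay far below control, and those groups overlapped each other. The log2 change from control to melanosome was -2.68 ± 0.22 (edgeR adjusted p = 2.84e-06), at the 0.129th percentile of all genes. From control to glabridin it was -2.22 ± 0.22 (edgeR adjusted p = 6.05e-06), a 4.67-fold lower level. Between glabridin and melanosome it was 0.46 (95% interval -0.07 to 0.99, edgeR adjusted p = 0.108). That difference was 0.68 and passed without glabridin replicate 2 (edgeR adjusted p = 0.00272), and was 0.13 without replicate 3 (edgeR adjusted p = 0.431). An antisense gene, CYP1B1-AS1, shares 678 exon bases and RMDN2 shares 96. The libraries were strand-specific per the labels, but the labels do not say whether counting used strand, so antisense reads cannot be told apart.

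ALDH3A1 (ENSG00000108602, chr17:19737984-19748943, minus strand), which clears lipid-derived and aromatic aldehydes in surface epithelia, did not follow the CYP1 genes. It stood at 341, 339 and 333 CPM in control, 360, 392 and 395 CPM in melanosome and 289, 333 and 243 CPM in glabridin libraries. The melanosome libraries were the highest and the glabridin libraries the lowest, and glabridin replicate 2 lay just under the lowest control library. The control to melanosome change was 0.18 ± 0.10 and did not pass (edgeR adjusted p = 0.123). On library totals it was 0.35 and passed (edgeR adjusted p = 0.00467), while with the GC and length offsets it was -0.01 (edgeR adjusted p = 0.845). It passed at 0.18 with glabridin replicate 2 or 3 (edgeR adjusted p = 0.0219 and 0.0173) left out of the joint fit. That fit shares an estimate of the spread per gene over all groups, glabridin libraries included, and the cause was not tested. The fall from melanosome to glabridin was 1.33-fold (log2 change -0.41 ± 0.10, edgeR adjusted p = 0.00583). The glabridin to control change was -0.23 ± 0.10 (edgeR adjusted p = 0.0526) and passed on library totals (edgeR adjusted p = 0.0222) and without glabridin replicate 2 (-0.34, edgeR adjusted p = 9.01e-04).

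**Figure D2:**
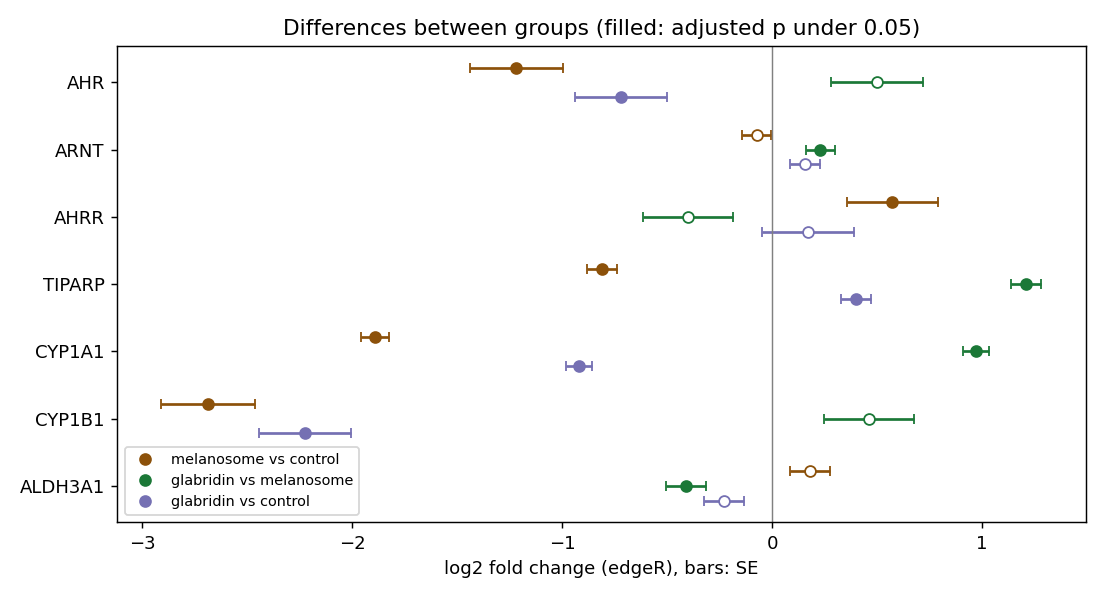
Log2 fold change of each member in the 3 comparisons (points, with SE bars; filled where the edgeR adjusted p is under 0.05, open otherwise; the line at 0 marks no change). CYP1B1, CYP1A1, AHR and TIPARP lie left of 0, with filled points, in melanosome against control, and of these CYP1A1 and TIPARP lie right of 0 with filled points in glabridin against melanosome.

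In glabridin against melanosome, 4 of the 7 members passed, 3 higher and 1 lower. Of all genes 43.9% passed, 23.7% higher and 20.2% lower. At least 2-fold changes passed for 1 member (TIPARP, higher), against 8.02% of all genes in either direction. The members' median log2 change was 0.46 and that of all genes 0.01. In glabridin against control, 4 members passed, 1 higher and 3 lower, against 70.3% of all genes, 37.6% higher and 32.7% lower. Here 1 member (CYP1B1, lower) passed with at least 2-fold, against 27.6% of all genes in either direction. Library groups did not overlap for 6, 5 and 5 members in melanosome against control, glabridin against melanosome and glabridin against control, where 76.1%, 50.2% and 73.2% of all genes did not. The comparisons share libraries, so their values are set side by side and not correlated.

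Per length, the most abundant transcript of the set in control was ALDH3A1, at 311 ± 3.15 TPM (a level scaled to transcript length; SD, n = 3). CYP1A1 followed at 161 ± 1.19 TPM and TIPARP at 149 ± 2.19 TPM. CYP1B1 stood at 90.4 ± 6.67 TPM, ARNT at 37.3 ± 1.74 TPM, AHR at 27.5 ± 1.46 TPM and AHRR at 1.12 ± 0.176 TPM. No neighbours in that order overlapped in their libraries. In melanosome libraries ARNT (40.2 ± 1.39 TPM) stood above CYP1B1 (16.0 ± 2.59 TPM), and AHR stood at 13.4 ± 2.17 TPM, overlapping CYP1B1. In the glabridin libraries TIPARP (196 ± 28.9 TPM) stood above CYP1A1 (85.2 ± 9.20 TPM), below ALDH3A1 (263 ± 27.1 TPM).

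Ratios of TPM within a library compare members with no need for scaling between libraries. Shifts that follow GC content or transcript length need not cancel in such a ratio. AHRR has 57.4% GC and AHR 38.2%, and the part of GC content here was not tested. CYP1B1 to AHR was 3.49, 3.07 and 3.32 in control libraries. It was 1.19, 1.21 and 1.18 in melanosome and 1.20, 1.15 and 1.14 in glabridin libraries, so these 2 groups shared a range although AHR itself more than doubled between glabridin replicates 2 and 3. AHRR to AHR averaged 0.0406 ± 0.00497 in control, 0.142 ± 0.0154 in melanosome and 0.0763 ± 0.00995 in glabridin libraries (SD, n = 3), with no overlap between any groups. TIPARP to AHR averaged 5.42 ± 0.228, 7.24 ± 0.601 and 12.7 ± 3.59, also without overlap. CYP1A1 to AHR averaged 5.89 ± 0.302 in control, 3.73 ± 0.424 in melanosome and 5.60 ± 1.84 in glabridin libraries. Its glabridin values ran from 3.52 to 7.03 and overlapped both other groups. CYP1A1 to CYP1B1 averaged 1.79 ± 0.146 in control and 3.13 ± 0.370 in melanosome libraries, and its glabridin values of 5.21, 6.10 and 3.10 overlapped the melanosome range. An exact two-sided permutation test of 3 against 3 libraries cannot give less than p = 0.1, the value of each comparison without overlap (adjusted p = 0.136 over 15 comparisons).

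**Figure D3:**
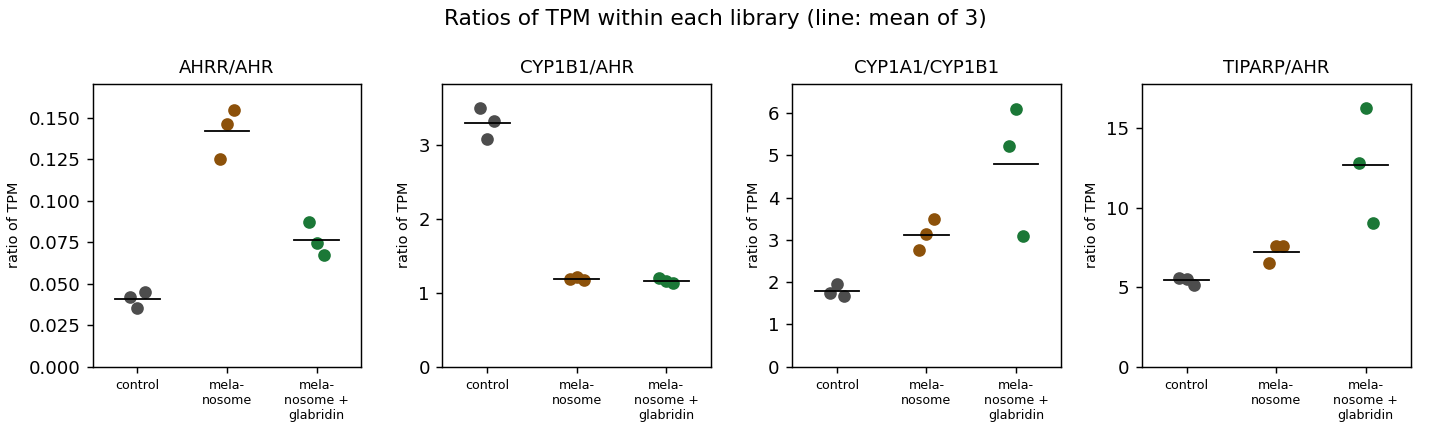
Ratio of TPM of 2 members within each library (points) for 4 pairs, with the mean of each group of 3 as a line (linear axes from 0). CYP1B1 to AHR drops from 3.07 to 3.49 in control to between 1.14 and 1.21 in every other library, while AHRR to AHR is highest in the melanosome group.

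The spread of the glabridin replicates differed between members. The CPM of replicate 3 over that of replicate 2 was 2.13 for AHR, 2.10 for CYP1B1 and 1.96 for AHRR, at the 96.3th, 95.9th and 94.3th percentiles of all genes. The ratio was 1.19 for TIPARP, 1.07 for CYP1A1, 0.897 for ARNT and 0.729 for ALDH3A1. Across genes the difference between these replicates went with GC content at a Spearman rho of -0.513 and with transcript length at 0.349. CYP1B1 has 44.1% GC (31.8th percentile), AHRR 57.4%, CYP1A1 53.3% and ALDH3A1 61.0% (86.6th percentile). The part of GC content in these ratios was not tested gene by gene.

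The genes whose profile over the 9 libraries was nearest to each member were found by the root-mean-square distance between centred log2 CPM values, among 13911 other genes. For AHR these were DNAJB14, a membrane-anchored co-chaperone, at 0.0689 and DGKH, a diacylglycerol kinase, at 0.0713. For ARNT the nearest was TINF2, a telomere protein, at 0.0310. For AHRR they were KIF11, a mitotic kinesin, at 0.103 and C4orf46 at 0.115. TIPARP was nearest to FUT1, a fucosyltransferase, at 0.112 and JUND, an AP-1 subunit, at 0.116. ALDH3A1 was nearest to GAPDH at 0.0356 and IFITM3 at 0.0427. The CYP1 genes had no such close neighbour, with CYP1A1 at 0.296 from DNAJC2 and 0.306 from ZBTB20, and CYP1B1 at 0.274 from the chromatin remodeller ATRX and 0.335 from KTN1. Among the members, the closest pair was ALDH3A1 and ARNT (0.283), followed by AHR and CYP1A1 (0.392). The distance is not scaled to the size of the changes, so genes that vary little lie close even where they move oppositely. From melanosome to glabridin, ALDH3A1 changed by -0.41 and ARNT by 0.23 on the log2 scale. AHR and CYP1B1 lay 0.700 apart. These members were not near neighbours among all genes: ARNT ranked 3029 of 13911 for ALDH3A1, and CYP1A1 ranked 1684 and CYP1B1 ranked 8296 for AHR.

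Around the set, 41 further genes of the pathway were grouped by role, of which 37 had enough counts. From control to melanosome 24 passed, 9 higher and 15 lower, a count that was 12 higher and 13 lower on library totals. On library totals 66.0% of all genes that passed were higher, against 4100 of 8691 with TMM factors. The share of these pathway genes that passed is near the 62.5% of all genes. From melanosome to glabridin 21 passed, 15 higher and 6 lower, against 43.9% of all genes. That balance depended on scaling, being 12 and 9 with RLE factors, 11 and 10 with upper-quartile factors and 7 and 10 on library totals. The balance of all genes that passed moved the same way. With TMM factors 3301 of 6111 were higher, and with RLE factors 2810 of 5998. With upper-quartile factors 2332 of 6144 were higher, and on library totals 1872 of 6445. The pathway genes that passed had a larger higher share than all genes under each of these scalings, a difference that was not tested. From control to glabridin 26 passed, 16 higher and 10 lower, again near the share of all genes (70.3%). The medians of the log2 changes were -0.15, 0.23 and 0.08 in these comparisons.

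Among the chaperones that hold AHR in the cytosol, HSP90AA1 fell in both steps (log2 change -0.47, then -0.67) and HSP90AB1 rose slightly in both (0.14, then 0.20). The first HSP90AA1 fall did not pass with limma on log2(TPM + 1) (-0.29, limma adjusted p = 0.0779). The first HSP90AB1 rise did not pass without control replicate 3 (edgeR adjusted p = 0.120), and the second did not pass on library totals (0.02). HSP90 genes have processed pseudogenes that can share reads. PTGES3, the p23 co-chaperone, did not pass in either step. Its control to melanosome change (0.22) passed in 12 of 21 alternatives, among them RLE factors (0.29, edgeR adjusted p = 0.0291) and library totals (0.39, edgeR adjusted p = 0.0130).

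The relatives of the receptor in the bHLH-PAS family held 2 large rises. NPAS2, a clock factor whose usual partner is BMAL1, averaged 0.329 ± 0.0895 CPM in control, with 10 to 17 counts, and 27.2 ± 1.43 CPM in melanosome libraries (log2 change 6.36 ± 0.20). ARNT2, the close paralogue of ARNT, averaged 4.13 ± 0.641 CPM in control, 22.7 ± 1.72 in melanosome and 11.5 ± 0.572 in glabridin libraries (log2 change 2.46 ± 0.12, then -0.98 ± 0.11). EPAS1 fell in both steps (-0.54, then -0.23) and SIM2 fell in the first (-0.82), while HIF1A did not pass. The melanocyte list rose with the melanosomes beside these 2 genes, and its part in them was not tested.

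Of 6 coactivators and ligase subunits, 5 fell from control to melanosome and none rose, where 33.0% of all genes were lower and 29.5% higher. These were NCOA2 (-1.20 ± 0.18), EP300 (-0.76), CREBBP (-0.72), NCOA3 (-0.70) and CUL4B (-0.44), a scaffold of the ubiquitin ligase that AHR can recruit. The CUL4B fall did not pass on library totals (edgeR adjusted p = 0.175), nor with the GC and length offsets (-0.02). With glabridin, CUL4B rose (0.52), a change that did not pass on library totals (edgeR adjusted p = 0.113). The CREBBP change of 0.40 passed narrowly (edgeR adjusted p = 0.0466) and did not pass in 16 of 21 alternatives, among them RLE factors (edgeR adjusted p = 0.0607) and library totals (edgeR adjusted p = 0.266). NCOA2 stood at 21.9 ± 6.96 CPM against 21.7 ± 1.57 in melanosome libraries.

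Among enzymes that open or process tryptophan on the way to AHR ligands, IDO1 fell in both steps. It averaged 4.40 ± 0.382 CPM in control, 2.99 ± 0.0737 in melanosome and 0.799 ± 0.127 in glabridin libraries, with a log2 change of -0.56 ± 0.14 and then -1.90 ± 0.16 (edgeR adjusted p = 0.00500 and 7.80e-06). TDO2, which catalyses the same step, was rare (27 to 33 counts in control, 11 to 17 in melanosome) and fell by 1.28 ± 0.28. KYAT1 rose in both steps (0.42, then 0.34) and AFMID rose with glabridin (0.42), though neither glabridin rise passed on library totals (edgeR adjusted p = 0.107 and 0.0777).

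Of the other xenobiotic-metabolism targets, NQO1, a quinone reductase that NRF2 also controls, moved opposite to CYP1A1 in the first step. It averaged 116 ± 2.60 CPM in control, 479 ± 8.64 in melanosome and 873 ± 267 in glabridin libraries (log2 change 2.05 ± 0.17, then 0.87 ± 0.16). NFE2L2, which encodes NRF2, fell by 0.70 and then rose by 0.48, a rise that did not pass on library totals (edgeR adjusted p = 0.135). CYP2S1 rose in the first step (0.38). UGT1A1 fell in both (-0.97, then -0.80), but UGT1A genes share exons, so its counts are uncertain. CYP1A2 held 6 to 20 counts in control, 0 to 6 in melanosome and 4 to 17 in glabridin libraries. Its fall (-2.20 ± 0.83, edgeR adjusted p = 0.0387) did not pass on library totals (edgeR adjusted p = 0.0619) or without control replicate 2 (edgeR adjusted p = 0.183).

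Of the other epithelial targets, 5 of 10 passed from control to melanosome (3 higher, 2 lower), and 8 of 10 passed from melanosome to glabridin, all higher. Of all genes, 62.5% passed in the first step and 43.9% in the second, with 23.7% higher in the second. The second count was 6 higher and 1 lower on library totals. The list's median log2 change was 0.08 in the first step and 1.00 in the second, against -0.06 and 0.01 over all genes. The list was chosen with earlier results of these data known, so these counts are a description and not independent support. AREG and EREG are ligands of the EGF receptor. AREG rose in both steps, from 8.65 ± 0.551 CPM to 19.3 ± 0.869 and 68.4 ± 9.94 CPM. EREG stood at 0.539 ± 0.150 CPM, 0.657 ± 0.189 and 4.20 ± 1.65 CPM, and passed in the second step only (log2 change 2.66 ± 0.32), a difference between steps that was not tested. IL1B, an inflammatory cytokine, rose in both steps (log2 change 1.42 ± 0.06, then 1.58 ± 0.06). STC2, a secreted glycoprotein that ATF4 also controls, rose from 5.18 ± 0.278 to 8.41 ± 0.296 and 51.0 ± 12.8 CPM. OVOL1, a transcription factor of keratinocyte differentiation, stood at 48.0 ± 1.83, 47.2 ± 2.65 and 94.9 ± 27.4 CPM. FLG, the barrier protein filaggrin, fell in the first step (-0.81). Its second change was also downward (-0.62) and did not pass (edgeR adjusted p = 0.0517), though it passed in 11 of 21 alternatives. From control to glabridin FLG fell by 1.44 on the log2 scale (edgeR adjusted p = 2.16e-04).

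**Figure D4:**
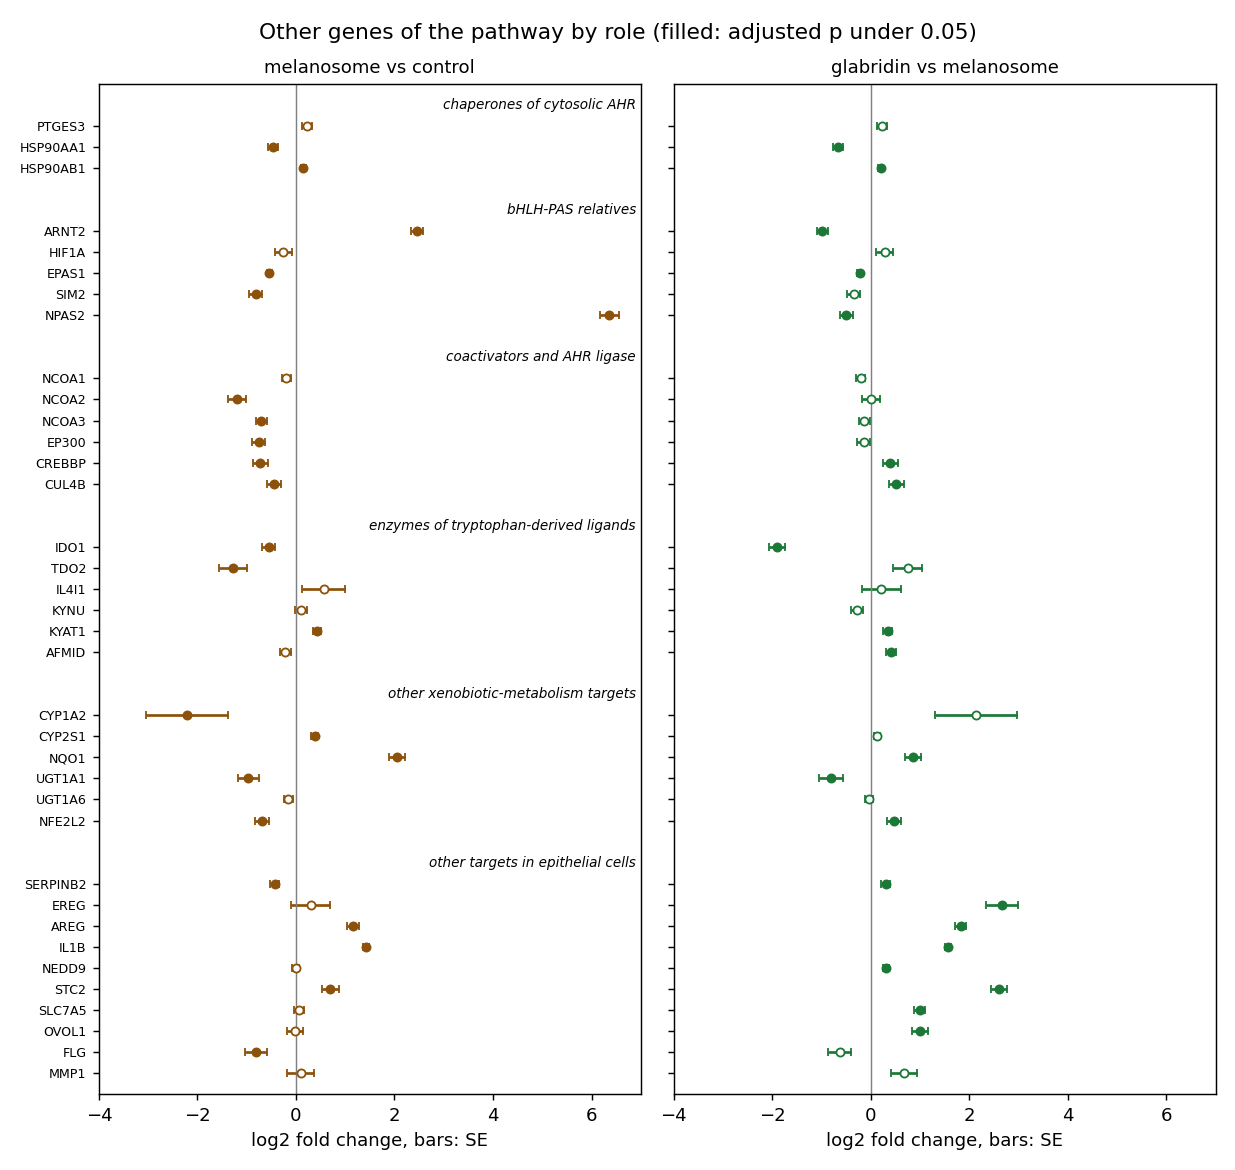
Log2 fold change (points, SE bars) of 36 other pathway genes with enough counts, by role, in melanosome against control and glabridin against melanosome; filled points passed the edgeR test at an adjusted p under 0.05. The coactivators lie at or below 0 in the first comparison, and AREG, EREG, IL1B, STC2 and OVOL1 lie at or above 1.00 in the second.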

How the data were processed

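Poly(A) RNA of HaCaT cells was made into strand-specific paired-end libraries, per the labels' protocols. Per the file headers, the authors gave each gene a raw whole-number count in every library, with its TPM and FPKM beside it. The FPKM values were made by the authors and give no result here. A further deposited TPM table held the same values (largest difference 0). The build was hg38, per the submitters' processing notes; the sources used here do not give the aligner, counter or annotation. Groups and replicate numbers come from the sample titles. Symbols were matched for 20148 of 20263 identifiers, and positions come from GENCODE release 29.

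The quasi-likelihood test of edgeR 4.0.16 (R 4.3.3) was run on the counts after filterByExpr, with TMM factors, 1 term for the group, all 9 libraries and no replicate block. The groups share an estimate of the spread per gene, so the SE and p-value of a comparison also carry the spread of the group not compared. P-values were adjusted by Benjamini and Hochberg over 13912 genes, with a threshold of 0.05. Only the rows described are printed. CPM use TMM-scaled library sizes. The fit was tested on simulated counts in which a small share of genes changed, alternately up and down, in the melanosome group only. That setting does not test the scaling where most genes change. GC content and length had a value for 13907 of 13912 genes. Replicates were compared by chi-square and all differed by more than sampling noise.

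Alternatives (19 planned, 2 added after the data were seen) were other scaling factors, DESeq2 1.42.0, limma 3.58.1 on log2(TPM + 1) and log2(TPM + 0.1), no filter, a replicate block, only the 2 groups compared, no mitochondrially encoded genes, each library left out, GC and length offsets, and no genes that control lacked (at most 3 counts in each control library). The members and lists were chosen with earlier results of these data known. Besides the members, genes are named that passed with a log2 change of at least 1 in either of the first 2 comparisons, that a count of 5 or fewer refers to, or that are 1 of the 2 nearest to a member; some of these genes are not reported here, but stay in the counts. Between 69.9% and 72.2% of counts from 1 to 49 were even in each library. Whether both reads of a pair were counted is not given.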

Additional observations from a re-analysis of the deposited data

How the results depend on the processing

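The counts of members and pathway genes that passed stayed within 1.5 times under every alternative run. Leaving out each library in turn gave 4 to 6, 3 to 6 and 4 to 6 members, and 21 to 28, 14 to 25 and 24 to 30 pathway genes, in melanosome against control, glabridin against melanosome and glabridin against control. The number of all genes that passed moved in the same fits, from 7499 to 9810, 4838 to 7332 and 9039 to 10511, of 14050 to 14077 tested. Of the single log2 changes of members, 8, 0 and 1 turned sign, none of them a change that had passed. For ARNT in melanosome against control (-0.07) the value was 0.094 on library totals, 0.10 and 0.11 on log2(TPM + 1) and log2(TPM + 0.1), 8.9e-04 without mitochondrially encoded genes, 0.0089 in the fit of 2 groups, between -0.095 and 0.0018 with each library left out in turn and 0.014 with the GC and length offsets. For ALDH3A1 in the same comparison it was -0.011 with those offsets. For AHRR in glabridin against control it ran from -0.063 (without glabridin replicate 3) to 0.39 with each library left out in turn. The cause was not tested.

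Whether replicate numbers pair the samples is not stated in the labels. Of 9 correlations of same-numbered deviations, 0 were over 0.1 (from -0.23 to 0.05), which cannot exclude a weak pairing. With a replicate block, 5, 4 and 5 members and 22, 21 and 25 pathway genes passed, beside 8255, 5523 and 9507 of all 13912 genes. ALDH3A1 in glabridin against control then passed (edgeR adjusted p = 0.0477). With some libraries left out, the glabridin rises of HSP90AB1, CREBBP, CUL4B, KYAT1, AFMID, NFE2L2 and some of the other epithelial targets did not pass. Nor did the glabridin fall of UGT1A1 or the melanosome changes of HSP90AB1, CUL4B and CYP1A2. With 3 libraries a group, AHRR, CYP1A2 and TDO2 are limited by their low counts.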
